A study of Boehmeria nivea with 10 samples.

Results

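Late hydroponic roots of ramie (Boehmeria nivea, a fibre plant) were compared with early hydroponic roots across all contigs of a root transcriptome assembly. The 3 late libraries came from aquatic roots of 30-day-old seedlings and the 3 early libraries from aquatic roots of 5-day-old seedlings. These were 6 of the 10 samples of the series, chosen by their labels, and the 3 terrestrial libraries and the 1 pooled reference sample were left out. Both groups had rooted in water, so the comparison holds the medium fixed while root stage and seedling age change together. The labels give no cultivar, no treatment other than the water culture, and no statement on whether the libraries of a stage came from separate plants. The p-values therefore measure only the spread between these libraries, which may be technical. The study set out to follow root induction in water and the adjustment to it.

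Roots that form from a shoot in water are adventitious roots: they arise from stem tissue and first consist largely of dividing and elongating cells. As they age they differentiate vascular tissue, root hairs or their water-grown counterparts, lateral roots and, in many species, air channels called aerenchyma that carry oxygen inward, because oxygen diffuses slowly in water. None of this can be read from single contigs here, since the files pair the contig identifiers with no gene name, and for the same reason the tissue label could not be checked against marker genes. A contig is a stretch of assembled transcript, and a name such as CL1031.Contig4_mixA marks a member of an assembly cluster, whose members can be alleles, splice forms, close paralogues or fragments of 1 transcript. A Unigene name marks a contig outside any cluster. Levels are given in FPKM, the authors' fragments per kilobase of contig scaled to the depth of the library, and a value of 0 means that the contig was not listed for that library.

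Summed expected counts were 9878863, 9499903 and 10328909 in late replicates 1, 2 and 3, against 11522430, 11424582 and 11466215 in early replicates 1, 2 and 3. Every late library was thus shallower than every early one. In whole roots, fewer cells of a type and less RNA per cell cannot be told apart. On the first principal component of log2 CPM (counts scaled to library depth), which held 59.4% of the variance, late replicates 1, 2 and 3 lay at 106, 90.1 and 44.3, against -86.2, -81.6 and -72.2 for early replicates 1, 2 and 3. Late replicate 3 stood apart from the other late libraries, shifted towards the early ones but still positive as they were. On the second component (12.6% of the variance) it was the highest library, at 72.4. Late replicates 1 and 2 lay there at -51.3 and 1.86, and the early libraries at -26.3 to 6.79. Its correlation across contigs with the early libraries was 0.893 to 0.907, against 0.838 to 0.867 for late replicates 1 and 2. With late replicates 1 and 2 the correlation of late replicate 3 was higher, at 0.921 and 0.931. The main counts of calls, and the named contigs in which it decided a call, are given with and without it.

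Of 24258 contigs tested, 3871 differed between the stages, which is 16%. A total of 2039 were higher in late roots (8.41%) and 1832 were lower (7.55%), a call being an adjusted p under 0.05 (Benjamini-Hochberg) in the quasi-likelihood test of edgeR. Rises were larger than falls. The median fitted log2 change was 1.68 for rises and -1.02 for falls. Rises of 4-fold or more numbered 856 and falls of that size 261, and at 16-fold or more there were 349 rises and 89 falls. These sizes include contigs with no counts in 1 stage, whose fitted change depends on the prior count. In every called contig all 3 late libraries lay on 1 side of all 3 early ones in FPKM. Over all tested contigs such a separation was found in 41.3%, where 16% were called.

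**Figure D1:**
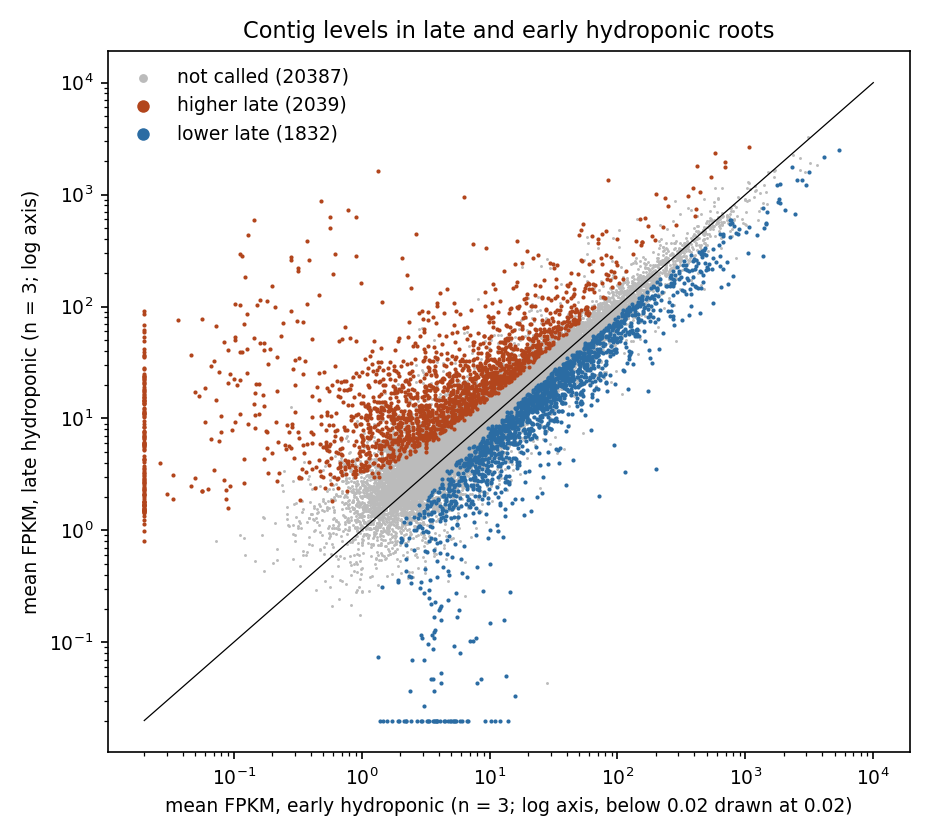
Mean FPKM of each of the 24258 tested contigs in late (vertical) against early hydroponic roots (horizontal), 3 libraries each, both axes logarithmic and levels below 0.02 drawn at 0.02. The 2039 contigs higher in late roots spread far from the diagonal at low early levels, while the 1832 lower ones mostly keep close to it.

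Without late replicate 3 the same test called 6420 of 25653 contigs, or 25%. There were 3162 higher (12.3%) and 3258 lower (12.7%) contigs, so that the majority passed to the falls. Of the 3871 contigs called with all 6 libraries, 3672 were called again without late replicate 3, and all of these kept their direction. That is 94.9% of the contigs called with 6 libraries and 57.2% of those called with 5. Median changes were alike without it, at 1.61 for rises and -1.11 for falls, and large rises again outnumbered large falls, with 1291 rises and 600 falls at 4-fold or more and 596 rises and 205 falls at 16-fold or more. With all 6 libraries the share of called contigs that were higher was 52.7% with the scaling used here (TMM). It was 68.1% with library totals alone (2728 higher and 1277 lower) and 65.4% with limma on log2(FPKM + 1). By DESeq2, limma voom and limma voom with quality weights it was 49.9%, 48.1% and 49%. The majority thus passed narrowly to the falls in those fits too, with late replicate 3 included. Over all tested contigs the median log2 change was 0.16 by library totals and 0.03 by TMM. Log2 changes by edgeR below are on the TMM scale, while FPKM values and what is computed from them are not.

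The 10 largest rises and the 10 largest falls below were taken among called contigs with a mean of at least 10 FPKM in the higher stage. Under that limit the rises of largest fitted size were contigs that early roots hardly held. Their order depends on the prior count where early roots had no counts: by limma on log2(FPKM + 0.1) the log2 change was 8.1 for CL2124.Contig3_mixA and 11.35 for CL1031.Contig4_mixA, against 13.08 and 11.4 by edgeR. CL2124.Contig3_mixA, of 2980 bases, stood at 57.55, 38.83 and 9.05 FPKM in late replicates 1, 2 and 3 and was not listed in any early library. Unigene30964_mixA, of 768 bases, stood at 208.61, 294.63 and 338.37 FPKM in late replicates 1, 2 and 3, against 0, 0 and 0.35 FPKM in early ones. Unigene33004_mixA, of 255 bases, stood at 382.99, 713.79 and 207.26 FPKM in late libraries, against 0, 0 and 0.39 FPKM in early libraries. The stages were far apart in all of these, and late replicate 3 was the highest late library in 1 of them and the lowest in the other two. Unigene24895_mixA, of 257 bases, belonged to the 5 of the 10 largest rises with no early counts and was the most even of these, at 106.71, 89.57 and 60.2 FPKM in late replicates 1, 2 and 3 and unlisted in all 3 early ones.

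A fold against a stage with no counts can only be bounded, with 3 counts over the stage as the floor. By that bound CL2124.Contig3_mixA was at least 1100.4-fold higher in late roots (adjusted p = 0.0167 by edgeR's quasi-likelihood test) and Unigene24895_mixA at least 202-fold (adjusted p = 0.00465). Unigene30964_mixA rested on 3 early counts, and its ratio of scaled counts, late to early, was 2216 with a 95% exact binomial interval of 758 to 10751 (adjusted p = 0.00226 by edgeR). For Unigene33004_mixA, with 1 early count, it was 3021 (interval 542 to 119345, adjusted p = 0.00465 by edgeR). These intervals and bounds cover counting error only. The others unlisted in early roots, Unigene1970_mixA, Unigene27972_mixA and CL2978.Contig2_mixA, averaged 90.3 ± 51.8, 67.7 ± 70.5 and 39 ± 19.7 FPKM in late roots (SD, n = 3). They were at least 252-, 222- and 189.7-fold higher by the same floor.

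Late replicate 3 was low in several of these contigs without losing the direction. Unigene24113_mixA, of 287 bases, stood at 277.87, 597.69 and 5.26 FPKM in late replicates 1, 2 and 3, against 0, 0 and 0.34 FPKM in early libraries. Its call (adjusted p = 0.0298 by edgeR) was lost when any library other than late replicate 3 was left out, with a highest adjusted p of 0.143, as was that of Unigene27972_mixA with 0.12. With all 6 libraries Unigene24113_mixA was not called by limma voom (adjusted p = 0.274), limma voom with quality weights (0.173) or edgeR without the count filter (0.0556). DESeq2, limma on log2(FPKM + 1) and edgeR with other scalings did call it. Of the 10 largest rises, 5 were called in each of the 6 fits that leave out 1 library: Unigene33004_mixA, Unigene30964_mixA, Unigene24895_mixA, CL2978.Contig2_mixA and CL1031.Contig5_mixA. CL2124.Contig3_mixA missed the threshold in 4 of these fits, by a highest adjusted p of 0.0517, CL1031.Contig4_mixA in 1, without early replicate 3, at 0.0503, and Unigene1970_mixA in 1, without late replicate 1, at 0.0511.

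Cluster CL1031 gave 2 of the 10 largest rises, and all 5 of its contigs were higher in late roots. CL1031.Contig4_mixA, of 236 bases, stood at 366.39, 1198.14 and 214.16 FPKM in late replicates 1, 2 and 3, against 0, 0 and 0.43 FPKM in early ones. CL1031.Contig1_mixA, of 352 bases, stood at 1097.48, 3044.19 and 736.77 FPKM in late replicates 1, 2 and 3, against 0, 1.08 and 2.96 FPKM in early ones. CL1031.Contig5_mixA, of 212 bases, followed the same order among late libraries, with 475.15, 1837.42 and 300.95 FPKM, against 0.48, 0 and 0.97 FPKM in early libraries. CL1031.Contig2_mixA, at 3755 bases the longest member, was highest in late replicate 3, with 392.17, 518.06 and 984.44 FPKM in late libraries, against 0.02, 0.11 and 1.57 FPKM in early libraries. Late replicate 3 thus held the lowest late level of these 3 short members and the highest of the long one, while the last member, CL1031.Contig3_mixA, was lowest in late replicate 2. Summed over the cluster, the counts were 20098, 33732 and 42415 in late libraries, against 2, 9 and 83 in early libraries. The sum differed by 10.09 ± 1.1 (SE) on the log2 scale (adjusted p = 0.00184 by edgeR on summed clusters). Early replicate 3 held most of the early counts of the cluster.

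The 10 largest falls, taken among called contigs with a mean of at least 10 FPKM in early roots, were close to 0 in late roots. With 1 exception their early levels lay not far above that limit, so the early levels depend on the choice. Unigene4585_mixA, of 1963 bases, was unlisted in all 3 late libraries and stood at 10.53, 18.43 and 4.31 FPKM in early replicates 1, 2 and 3. Unigene17662_mixA, of 1537 bases, was likewise unlisted in late roots, against 7.71, 23.32 and 4.97 FPKM in early libraries. CL2199.Contig2_mixA, of 1533 bases, stood at 0, 0.1 and 0 FPKM in late libraries, against 17.63, 10.13 and 19.73 FPKM in early ones. Early replicate 2 was the highest early library in the first pair and the lowest in the third contig. Unigene4585_mixA was at least 238-fold lower in late roots (adjusted p = 0.0148 by edgeR) and Unigene17662_mixA at least 200.4-fold lower (adjusted p = 0.0198), with the floor of 3 counts over the late stage. For CL2199.Contig2_mixA the ratio of scaled counts, early to late, was 566 (95% exact binomial interval 142 to 31322, adjusted p = 0.00323 by edgeR). Its expected counts were whole in no more than 2 libraries, so some of its reads were divided among contigs. The summed counts of its cluster, CL2199, changed by 0.07 ± 0.3 on the log2 scale and were not called (adjusted p = 0.886 by edgeR on summed clusters).

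Unigene25911_mixA was the sole strongly expressed contig among the 10 largest falls, at 7.25, 0.55 and 2.85 FPKM in late replicates 1, 2 and 3, against 133.94, 371.31 and 95.25 FPKM in early ones. The other nine averaged 10.1 to 15.8 FPKM in early roots and at most 0.283 FPKM in late roots. The limit of 10 FPKM left out falls of like size, such as CL1100.Contig9_mixA, with a log2 change of -9.58 at a mean of 6.77 FPKM in early roots. Unigene26240_mixA and Unigene30262_mixA were unlisted in all late libraries and at least 47.3- and 34-fold lower. Unigene1154_mixA, Unigene25423_mixA, Unigene29215_mixA and Unigene19671_mixA kept 3 to 4 counts over the late stage. Late replicate 3 held all the late counts of Unigene29215_mixA and Unigene19671_mixA. Without it their fitted log2 changes were -9.19 and -9.22, which depend on the prior count as the late stage is then at 0, against -5.98 and -5.64 with all 6 libraries. Of the 10 largest falls, 5 were called in all 6 fits that leave out a library: CL2199.Contig2_mixA, Unigene1154_mixA, Unigene25423_mixA, Unigene29215_mixA and Unigene25911_mixA. Unigene4585_mixA and Unigene26240_mixA lost their call without early replicate 1 alone (adjusted p = 0.0602 and 0.0559 by edgeR), Unigene17662_mixA and Unigene30262_mixA in 2 fits each, and Unigene19671_mixA in 5.

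**Figure D2:**
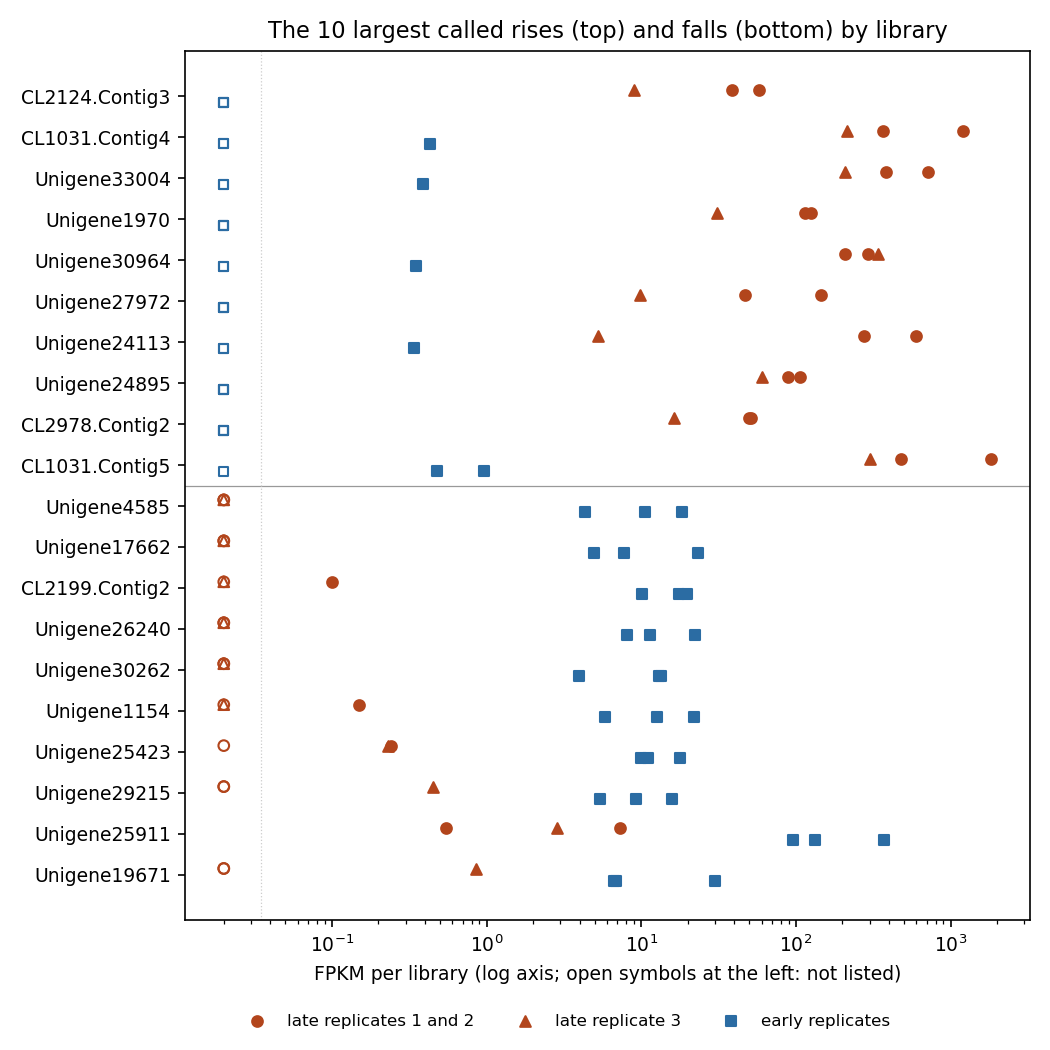
FPKM in each of the 6 libraries (horizontal, log axis) for the 10 contigs of largest fitted rise and the 10 of largest fitted fall in late against early hydroponic roots. They were taken among called contigs with a mean of at least 10 FPKM in the higher stage. Open symbols at the left edge mark libraries that did not list the contig. Late replicate 3, drawn as a triangle, is the lowest late library in 9 of the 10 rises.

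Contigs listed in 1 stage alone were more numerous on the late side. A total of 339 contigs had at least 1 FPKM in all 3 late libraries and were listed in no early one, while 124 had at least 1 FPKM in all 3 early libraries and were listed in no late one. The early libraries were the deeper ones. Mean levels in the stage that held them were 3.87 FPKM (median) for the 339 contigs, up to 90.3, and 2.86 FPKM for the 124, up to 13.9. At least 10 FPKM was reached by 92 of the 339 and by 4 of the 124. Most of both sets were short contigs outside any cluster: the median length was 308 bases for the late set and 346 bases for the early one, and 273 and 104 of them carried no cluster number. The count filter passed 126 of the late set and 38 of the early set, and 125 and 38 of these were called. A contig passed the filter only through the stage that held it, so these calls follow from the choice of the sets. With late replicates 1 and 2 alone the sets held 552 and 190 contigs. Late replicate 3 lacked 66 of the 552, and held 28 of the 190 at 1 FPKM or more.

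Expression was spread over more contigs in late roots. The 100 most abundant contigs of each library took 15.6%, 14.4% and 16.3% of the summed FPKM in late replicates 1, 2 and 3, against 19.3%, 19.3% and 17.7% in early ones. The groups did not overlap. The mean was 15.4 ± 0.932% in late and 18.7 ± 0.935% in early roots (SD, n = 3), and the exact two-sided permutation p was 0.1, the smallest that 3 against 3 libraries can give. It took 1330, 1449 and 1200.0 contigs to reach 50% of the summed FPKM in late libraries, against 980.0, 1006 and 1022 contigs in early libraries. In both measures late replicate 3 was the late library closest to the early ones. Without it the difference in the share of the top 100 contigs was -3.75 percentage points, late minus early, against -3.33 with it.

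**Figure D3:**
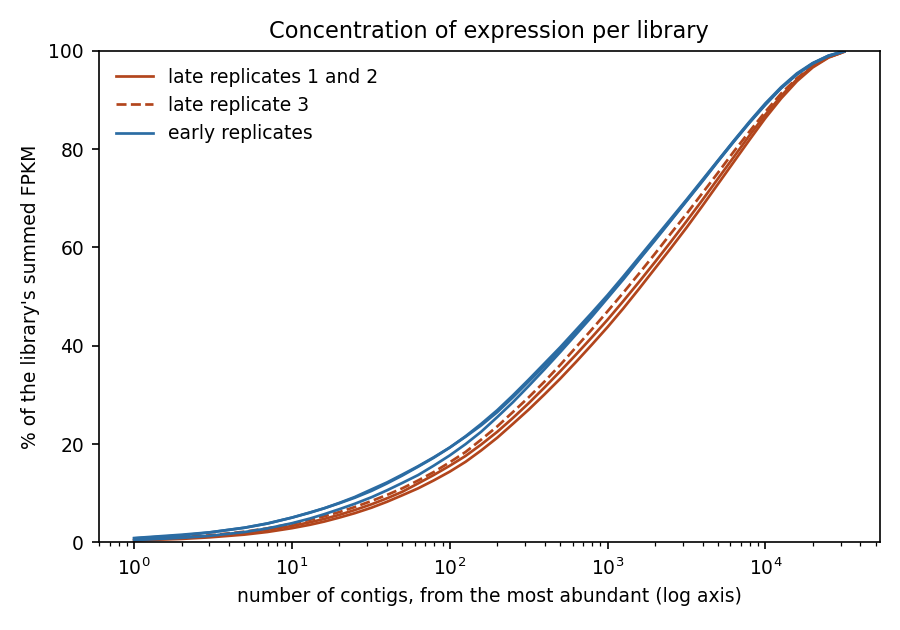
Share of a library's summed FPKM (vertical, %) held by its most abundant contigs, against their number (horizontal, log axis), for 3 late and 3 early hydroponic libraries. At 100 contigs the late curves lie between 14.4% and 16.3% and the early ones between 17.7% and 19.3%, and late replicate 3 is the late curve closest to the early ones.

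More contigs reached a given level in late roots as well. At least 1 FPKM was reached by 29775, 30202 and 29665 contigs in late replicates 1, 2 and 3, against 28042, 28465 and 28601 in early ones. Means were 29881 ± 284 in late and 28369 ± 292 in early roots (SD, n = 3), and a permutation test over libraries gave an exact p = 0.1 (two-sided), again the smallest possible. The part of depth in this difference was not tested at 1 FPKM. FPKM and thinned counts are scaled to library totals and not by TMM, and the part of that scaling was not tested either. A smaller share of the top contigs leaves more FPKM to the rest, so this measure is tied to the last. When each library was thinned to the smallest total of 9499903 counts, 23992, 24388 and 23604 contigs kept 10 or more counts in late libraries, against 22374, 22759 and 22874 in early libraries. At 100 FPKM or more the groups overlapped, with 1250.0, 1287 and 1273 contigs in late libraries, against 1196, 1245 and 1273 in early libraries (exact permutation p = 0.3, two-sided).

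The order of the most abundant contigs was partly rebuilt. Of the 100 contigs with the highest mean FPKM in late roots, 63 were also among the highest 100 of early roots, and of the first 500, 386 were shared. Among the 100 most abundant contigs of late roots 21 were called higher and 16 lower, and among those of early roots 3 were called higher and 38 lower. Each list was ranked on 1 of the groups compared, which favours rises in the late list and falls in the early one, so these counts are a description. Over all tested contigs 16% were called.

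CL1699.Contig2_mixA, the most abundant contig of late roots, was chosen for naming after its values were seen, and no change was called in it. Its rank rests on late replicate 3: over late replicates 1 and 2 the highest means were those of CL735.Contig7_mixA, at 2668 FPKM, and CL3437.Contig3_mixA, at 2558 FPKM. It stood at 2797.9, 2122.8 and 4823.39 FPKM in late replicates 1, 2 and 3, against 3428.62, 3109.07 and 2773.67 FPKM in early ones. The groups overlapped, and the adjusted p was 0.93 with all libraries and 0.109 without late replicate 3 by edgeR. The next contig by mean late level over 3 libraries was CL3437.Contig3_mixA, of 969 bases, which ranked number 48 in early roots. It stood at 2707.3, 2408.78 and 2861.83 FPKM in late libraries, against 931.74, 1343.17 and 946.84 FPKM in early libraries. Its log2 change was 1.18 ± 0.2 (SE), with adjusted p = 0.0138 by edgeR. All 4 contigs of its cluster rose, and their summed counts changed by 1.25 ± 0.19 on the log2 scale (adjusted p = 0.00496 by edgeR on summed clusters). CL3437.Contig4_mixA, of 1496 bases, stood at 1846.31, 1626.64 and 1850.04 FPKM in late libraries, against 589.24, 813.46 and 659.58 FPKM in early ones, and was called in all 6 fits that leave out a library. Late replicate 3 did not stand apart in this cluster, and the counts of CL3437.Contig3_mixA were whole in 0 of 6 libraries, so its reads were divided with other contigs. The call of CL3437.Contig3_mixA was lost without early replicate 1 or 3 (highest adjusted p = 0.0693).

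Other abundant contigs that rose varied more between late libraries. CL735.Contig7_mixA, of 1062 bases, stood at 3685.32, 1650.35 and 1725.79 FPKM in late replicates 1, 2 and 3, against 409.94, 797.91 and 533.93 FPKM in early ones (log2 change 1.89 ± 0.42, adjusted p = 0.0304 by edgeR). Unigene2626_mixA, of 860 bases, stood at 3225.9, 833 and 1289.84 FPKM in late libraries, against 375.71, 368 and 504.61 FPKM in early libraries (log2 change 1.99 ± 0.51, adjusted p = 0.0478 by edgeR). Late replicate 1 was by far the highest library in both. Without it the log2 change of Unigene2626_mixA was 1.23, and its call was lost in 4 of the 6 fits that leave out a library, late replicate 3 included. CL4060.Contig2_mixA, of 742 bases, stood at 1997.39, 2413.77 and 1485.76 FPKM in late libraries, against 484.3, 913.2 and 674.42 FPKM in early ones, a log2 change of 1.37 ± 0.27 (adjusted p = 0.0215 by edgeR). In cluster CL735, 3 of 7 contigs were higher and none was lower, and in CL4060 both contigs were higher. The call of CL735.Contig7_mixA was lost when any of the early libraries was left out and that of CL4060.Contig2_mixA in 4 fits, with highest adjusted p of 0.109 and 0.088.

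The 5 most abundant contigs among the eligible falls had log2 changes of -1.03 to -1.4. Other contigs of like early level were not called with all 6 libraries, among them CL276.Contig1_mixA (log2 change -1.11, adjusted p = 0.052 by edgeR) and CL3597.Contig1_mixA (-0.86, adjusted p = 0.234). They ranked number 3 and 4 in early roots and were chosen for naming after their values were seen. Late replicate 3 decided the call of CL276.Contig1_mixA. Without it CL276.Contig1_mixA was called lower (adjusted p = 0.00284 by edgeR), while CL3597.Contig1_mixA was still not called (0.103). CL2837.Contig2_mixA, the leading contig of early roots, stood at 2225.31, 2035.39 and 3178.62 FPKM in late replicates 1, 2 and 3, against 6482.79, 6142.52 and 3600.93 FPKM in early ones. CL2837.Contig3_mixA, at 2384 bases the next, stood at 2418.3, 1730.97 and 2395.02 FPKM in late libraries, against 4897.12, 4434.03 and 2958.65 FPKM in early libraries. Early replicate 3 was the lowest early library in both. Their log2 changes were -1.25 ± 0.3 and -1.03 ± 0.26 (adjusted p = 0.0362 and 0.04 by edgeR), and leaving out 1 library ended the call in 4 and 5 of 6 fits, with highest adjusted p of 0.117 and 0.135. Of the 5 contigs of the cluster these 2 were called, and the summed counts changed by -0.92 ± 0.26 (adjusted p = 0.0384 by edgeR on summed clusters).

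Unigene666_mixA fell with less spread. It stood at 1525.3, 1621.61 and 1654.22 FPKM in late libraries, against 3282.27, 3352.21 and 2822.84 FPKM in early libraries, a log2 change of -1.11 ± 0.13 (adjusted p = 0.00729 by edgeR). CL1032.Contig8_mixA, of 1075 bases, stood at 1084.02, 1243.93 and 1359.81 FPKM in late replicates 1, 2 and 3, against 3380.16, 3165.43 and 2325.29 FPKM in early ones (log2 change -1.4 ± 0.2, adjusted p = 0.00906 by edgeR). Both were called in all 6 fits that leave out a library. In cluster CL1032, 7 of the 10 contigs were called lower and none higher, and the summed counts changed by -1.35 ± 0.2 on the log2 scale (adjusted p = 0.00413 by edgeR on summed clusters). Unigene12681_mixA, of 1256 bases, averaged 1359.7 ± 338 FPKM in late and 2795 ± 85.1 FPKM in early roots (SD, n = 3). Its log2 change was -1.17 ± 0.21 (adjusted p = 0.0157 by edgeR), or -1.38 without late replicate 3, and the call was lost in 4 of the fits that leave out 1 library.

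Which direction prevailed among called contigs went with the level and the length of the contig. Of 12407 tested contigs with a mean of 1 to 10 FPKM over the 6 libraries, 6.98% were higher and 4.62% lower in late roots. Between 10 and 100 FPKM the shares of 10358 contigs were 9.97% and 9.95%. At 100 FPKM or more, 8.44% of 1268 contigs were higher and 17.4% lower. Thus rises made up 60.2%, 50% and 32.7% of the called contigs from the lower to the higher levels. The order was the same without late replicate 3, at 58.6%, 45.7% and 23.9%, and with library totals alone, at 72.2%, 68% and 46%. Below 1 FPKM 225 contigs were tested, of which 33 were higher and 8 lower.

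**Figure D4:**
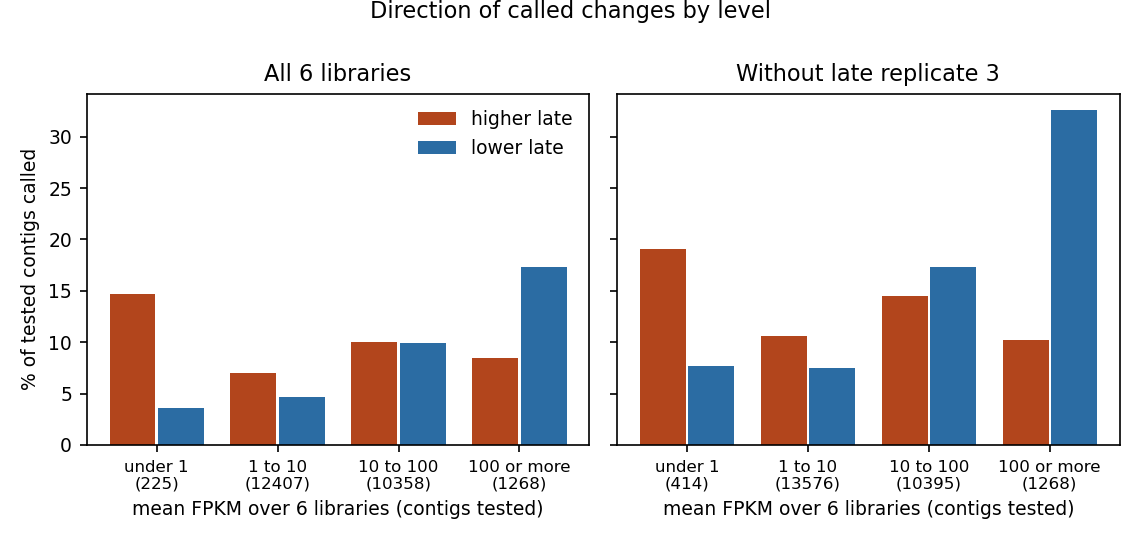
Share of tested contigs called higher or lower in late against early hydroponic roots (vertical, %), by mean FPKM over the 6 libraries (horizontal, number of contigs tested in brackets), with all 6 libraries and without late replicate 3. At 100 FPKM or more the falls, at 17.4% and 32.6%, exceed the rises, at 8.44% and 10.3%.

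By length, rises made up 69.9% of 658 called contigs under 500 bases, 62.4% of 876 from 500 to 1000 bases, 48.9% of 1498 from 1000 to 2000 bases and 35.8% of 839 at 2000 bases or more. The share of tested contigs that were called was 15.2% to 16.7% in these classes, close to the 16% of all. Short called contigs rose by a median log2 change of 3.18, against 0.947 for those of 2000 bases or more. With library totals alone the shares of rises were 77.8%, 72.2%, 65% and 62%, so that falls no longer prevailed among long contigs, while the order stayed the same. Without late replicate 3 they were 70.2%, 53.7%, 41.7% and 41.2%. Short contigs hold fewer reads at a given level, and the part of read number and of contig fragmentation in this order was not tested.

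At least 2 contigs were tested in 2599 clusters, and 572 of these clusters held a called contig. In 409 of them 1 contig was called, in 65 more than 1 was called and all were higher in late roots, and in 83 more than 1 was called and all were lower. Contigs of a cluster can share reads, which ties their counts. The 2599 clusters held 6044 tested contigs, and 16% of all tested contigs were called. A cluster with more tested contigs has more that could be called, so these counts of clusters are a description. Both directions were found in 15 clusters. Without late replicate 3, where 25% of all tested contigs were called, 934 of 2737 clusters held a called contig. Of these, 631 had 1 called, 113 had more than 1 with all higher, 152 had more than 1 with all lower, and 38 held both directions.

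The 15 clusters were chosen for contigs called in opposite directions, so the change of the sum lies between those of the contigs by that choice. The log2 change of the sum ran from -0.933 to 1.35, and 8 of the 15 sums were called, 1 higher and 7 lower. The same fit called 4807 of all 20888 summed clusters and single contigs tested, 52.4% of them higher. The 15 clusters were picked for holding called contigs, so their number of called sums is a description. Cluster CL1019 was an example: CL1019.Contig4_mixA, of 2902 bases, stood at 2.61, 0.87 and 1.59 FPKM in late replicates 1, 2 and 3 and was unlisted in early roots. CL1019.Contig3_mixA, of 2919 bases, stood at 0.22, 0 and 0 FPKM in late libraries, against 1.42, 0.9 and 1.74 FPKM in early ones. The summed counts of the cluster were 774, 658 and 671 in late libraries, against 699, 735 and 603 in early libraries, and overlapped (adjusted p = 0.525 by edgeR on summed clusters). The rise of CL1019.Contig4_mixA (adjusted p = 0.0125 by edgeR) and the fall of CL1019.Contig3_mixA (0.0372) stood beside a pair of more abundant members that were not called.

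CL1100 and CL3075 also held contigs that moved in opposite directions. CL1100.Contig8_mixA, of 2092 bases, stood at 14.6, 20.46 and 13.06 FPKM in late replicates 1, 2 and 3, against 0.44, 0 and 1.51 FPKM in early ones. CL1100.Contig9_mixA, of 1264 bases, was unlisted in all late libraries, against 5.25, 8.52 and 6.55 FPKM in early libraries. The adjusted p was 0.0228 for CL1100.Contig8_mixA and 0.00553 for CL1100.Contig9_mixA by edgeR, and the sum of the cluster's 9 contigs was higher in late roots by 1.35 ± 0.22 on the log2 scale (adjusted p = 0.00552 by edgeR on summed clusters). In CL3075, CL3075.Contig1_mixA stood at 3.43, 5.28 and 3.47 FPKM in late libraries, against 0.51, 0.02 and 0.63 FPKM in early ones. CL3075.Contig2_mixA was unlisted in late roots, against 1.92, 1.92 and 1.93 FPKM in early libraries. Both were called (adjusted p = 0.0374 for CL3075.Contig1_mixA and 0.00633 for CL3075.Contig2_mixA by edgeR), while their sum was not (adjusted p = 0.0889).

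CL2124, which holds CL2124.Contig3_mixA, had 2 higher and 2 lower contigs among 5 tested. CL2124.Contig5_mixA, of 1536 bases, stood at 56.75, 74.14 and 88.82 FPKM in late replicates 1, 2 and 3, against 201.67, 154.47 and 233.04 FPKM in early ones, a log2 change of -1.55 ± 0.22 (adjusted p = 0.00906 by edgeR). The sum of the cluster was lower in late roots by -0.46 ± 0.14 on the log2 scale (adjusted p = 0.0431 by edgeR on summed clusters). CL175 had a called rise in CL175.Contig4_mixA, at 6.21 ± 2.11 FPKM in late and 1.81 ± 0.207 FPKM in early roots, and called falls in CL175.Contig1_mixA, at 0.313 ± 0.225 FPKM in late and 1.45 ± 0.18 FPKM in early roots (SD, n = 3), and in CL175.Contig2_mixA. Its sum was not called (adjusted p = 0.238). In most of these pairs the expected counts were not whole in every library (CL175.Contig1_mixA in 0 of 6), so the levels depend on how the authors' counting divided shared reads. Of the 10 contigs named in these 5 clusters for their opposed change, 6 lost their call in 3 or more of the 6 fits that leave out 1 library, among them CL1019.Contig3_mixA, whose log2 change was -8.48 without late replicate 1, against -4.13 with it.

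Late replicate 3 was then placed by the contigs called without it, in which it had no part. On a log2 scale where 0 is the early mean and 1 the mean of late replicates 1 and 2, its median position over 6420 contigs was 0.555, with quartiles of 0.319 and 0.798. It lay on the late side of the midpoint in 56.2% of these contigs, beyond the late mean in 10.8% and beyond the early mean in 6.88%. Late replicate 3 was thus about midway between the stages. Treated the same way, late replicates 1 and 2 had medians of 1.12 and 0.959 and lay on the late side in 93.8% and 90.2% of the contigs called without them. The early libraries had medians of 1, 0.968 and 0.931 from replicate 1 to 3 and lay on their own side in 95%, 95.5% and 94.7%. The contig lists differ between libraries, since each was called without the library it places, and the means for late replicates 1 and 2 include late replicate 3.

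**Figure D5:**
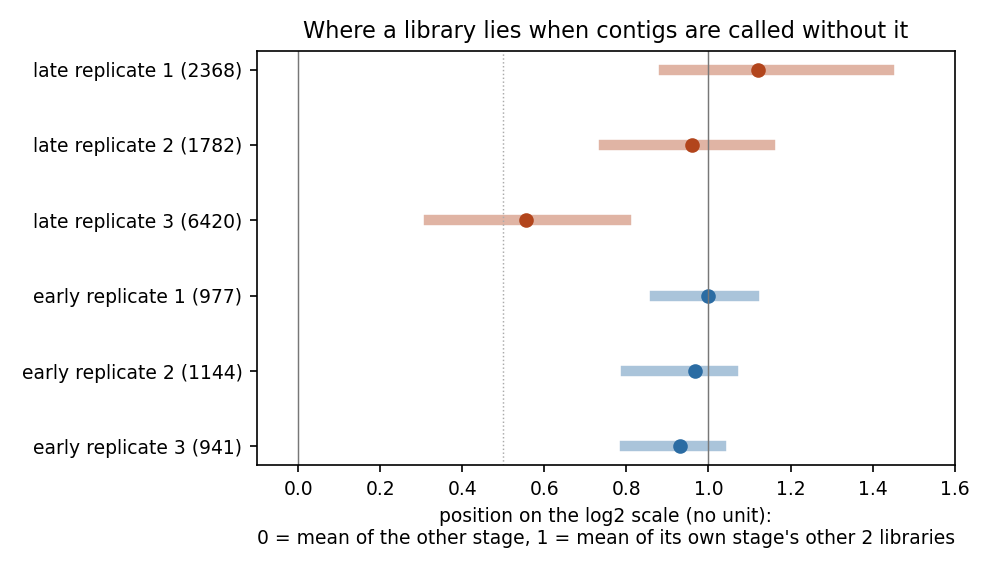
Position of each library among the contigs called without it (number in brackets), on a log2 scale where 0 is the mean of the other stage and 1 the mean of the other libraries of its own stage, with points for medians and bars from the lower to the upper quartile. Late replicate 3 has a median of 0.555, while those of the other 5 libraries lie between 0.931 and 1.12.

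The midway position was much the same for rises, with a median of 0.579, and for falls, with 0.532. By size of change it was 0.532 for 2313 contigs with a log2 change under 1, 0.53 from 1 to 2, 0.596 from 2 to 4 and 0.678 for 801 contigs at 4 or more. Single contigs did not follow the median. Of 2265 rises called without late replicate 3 with at least 10 FPKM in late roots, 208 had late replicate 3 at or below the highest early library. Of 2439 falls called without it with at least 10 FPKM in early roots, 532 had it at or above the lowest early library.

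Among these, Unigene33489_mixA, of 241 bases, stood at 32.26, 79.57 and 0 FPKM in late replicates 1, 2 and 3 and Unigene11013_mixA at 12.62, 33.78 and 0 FPKM, while neither was listed in early roots. CL1100.Contig1_mixA likewise stood at 12.49, 11.45 and 0 FPKM in late libraries and was unlisted in early ones. None of these 3 passed the count filter with all 6 libraries, and without late replicate 3 their adjusted p was 0.00748, 0.00966 and 0.0033 by edgeR. Of the falls, Unigene32642_mixA, of 1219 bases, stood at 0.68, 1.07 and 78.01 FPKM in late replicates 1, 2 and 3, against 33.63, 57.76 and 198.54 FPKM in early ones. CL191.Contig2_mixA stood at 0, 0 and 7.84 FPKM in late libraries, against 5.28, 5.38 and 20.12 FPKM in early libraries. Unigene19402_mixA stood at 0.38, 0 and 7.15 FPKM in late libraries, against 4.94, 5.64 and 19.99 FPKM in early ones. In all 3 falls late replicate 3 lay within the early range and early replicate 3 was the highest early library. Their changes were called without late replicate 3 (adjusted p = 0.021, 0.025 and 0.0247 by edgeR) but not with it (0.451, 0.358 and 0.313).

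Late replicate 3 also held contigs that no other library of either stage held at a like level. In 36 contigs it had at least 10 FPKM and at least 10 times the highest of the other 5 libraries, against 4 in late replicate 1, 1 in late replicate 2, 11 in early replicate 2 and none in early replicates 1 and 3. Of the 36, 16 were unlisted in the other 5 libraries, 34 lay outside any cluster, and together they took 0.187% of its summed FPKM, with 256 FPKM as the highest level. The 4 contigs of late replicate 1 took 0.172% of that library's summed FPKM, with 753 FPKM as the highest level, and the 11 of early replicate 2 took 0.0825%. Unigene19860_mixA, of 1202 bases, stood at 0.42, 0.26 and 256.31 FPKM in late replicates 1, 2 and 3, against 0.22, 0.22 and 0.8 FPKM in early ones. Unigene6328_mixA, of 586 bases, stood at 0.18, 0.19 and 212.63 FPKM in late libraries, against 0.31 FPKM in each early library. Unigene27327_mixA, of 398 bases, stood at 11.71, 16.99 and 193.77 FPKM in late libraries, against 0.23, 0.24 and 0.47 FPKM in early ones, so that its groups did not overlap and it was called higher with all 6 libraries (adjusted p = 0.0302 by edgeR) and without late replicate 3 (adjusted p = 0.00176). For these contigs late replicate 3 was not midway between the stages but outside both.

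Spread between replicates was wider at the late stage. The median standard deviation of a contig's log2 CPM was 0.281 over the 3 late and 0.202 over the 3 early libraries. Over pairs it was 0.199 for late replicates 1 and 2, 0.221 and 0.26 for the late pairs that include replicate 3, and 0.163 to 0.166 for early pairs. The late pair without replicate 3 was thus closer to the early pairs, though still wider. Every late library was shallower than every early one, and the part of depth in this spread was not tested.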

How the data were processed

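Root RNA of 3 late and 3 early hydroponic libraries was used, grouped by the labels. Per the labels' protocols, roots were frozen and RNA was isolated with Trizol, and per the series' design text reads were quantified on contigs assembled de novo from a pooled sample. The assembler, aligner, counting program, their versions and the strandedness are not given in the sources used here. Per the file headers, the authors deposited for each contig a length, an expected count, which can be fractional, together with an FPKM value. Deposited counts that were whole within 0.005 made up 74.7 to 75.4% of those listed per library. Where a library did not list a contig of the other tables, 0 was used, which is an inference.

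After rounding to whole numbers, expected counts went into edgeR 4.0.16 (R 4.3.3): TMM scaling, filterByExpr with a minimum count of 10, which kept 24258 of 39703 contigs, robust quasi-likelihood dispersions, 4 residual degrees of freedom, no block and no covariate, and Benjamini-Hochberg adjustment over all contigs tested. The SE is the absolute log2 change divided by the square root of F, so it restates the test. For values of whole libraries, SciPy 1.17.1 gave exact permutation tests, two-sided. Positions of left-out libraries use log2(CPM + 0.5) with TMM scaling. Named contigs were called, had at least 10 FPKM in the higher stage and did not overlap between the stages. Of these, the 10 rises and 10 falls of largest change and then the 5 rises and 5 falls of highest level were taken. Contigs of opposed clusters (the 5 with the largest smaller change), those in which late replicate 3 lay on the early side (3 each way) and those high in it alone (3) followed rules of their own. The members, lists and rules were chosen with earlier results of these data known. Alternatives were DESeq2 1.42.0, limma 3.58.1 on log2(FPKM + 1) and with voom, other scalings and filters, and each library left out in turn. The edgeR fit was run on 24258 simulated contigs, with 50 changed at each size. It recovered 14 of 50 rises of 2-fold, 29 of 50 falls of 4-fold, 49 of 50 rises of 8-fold and 40 of 50 falls of 16-fold. It also called 22 contigs that had not been changed.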

Additional observations from a re-analysis of the deposited data

How the results depend on the processing

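The number of called contigs was 3871 with all 6 libraries (2039 higher and 1832 lower in late roots). It stayed within 1.5 times of that under other scalings, count filters and tests, at 3088 to 5438, though falls numbered 2774 by limma voom with quality weights. It was 1246 by glmTreat against a 1.5-fold change (829 higher, 417 lower), 2461 with a log2 change of at least 1 (939 lower) and 2008 with the replicate block (1106 higher, 902 lower). With 1 library left out, calls ranged from 941 to 6420, with 532 to 3162 higher and 409 to 3258 lower contigs. They numbered 977, 1144 and 941 without early replicates 1, 2 and 3 and 2368, 1782 and 6420 without late replicates 1, 2 and 3. Fits of 5 libraries have fewer degrees of freedom, and their filter passed 25125 to 25653 contigs. Replicate numbers do not pair the samples by the labels. Deviations from the stage means of same-numbered libraries correlated weakly, at 0.0663, 0.06 and 0.0244. Each late library correlated best with the early library of its own number (3 of 3). Whether unpaired libraries would match as often was not tested, so no pairing is inferred. Under the replicate block 10 of the 39 named contigs with a test lost their call, and no named contig reversed under any alternative (94 of 773 values lost their call). These 39 were named because they were called, and no called contig overlapped between the stages in FPKM. The lack of reversals was thus largely fixed by that choice. Without late replicate 3, 1 of 39 lost its call, and without early replicate 1, 20 of 39 did. The share of the 100 most abundant contigs and the number at 1 FPKM or more kept their direction in all alternatives run, with p = 0.1 at best by exact permutation, so this says nothing of significance. Depth limits contigs listed at 0: a count of 0 over a stage allows up to 3 counts.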
